A study of Mus musculus with 8 samples.

Results

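The genes described here encode the relaxin family hormones Insl3, Rln1 and Rln3, the relaxin family receptors Rxfp1, Rxfp2 and Rxfp3, the corticotropin-releasing hormone (CRH) binding protein Crhbp, and the CRH receptor Crhr1. They are 8 of the 54532 genes in the count table, found by gene symbol, and they were chosen by their differences in read counts between KO and WT cells and by their families. That difference is therefore given for them as a description, with its standard error and without a test. RNA was sequenced from MA-10 cells, a line from a mouse Leydig cell tumour whose progesterone output is driven by cAMP. The groups were 4 libraries of cells in which the gene for microsomal triglyceride transfer protein (MTP, gene Mttp) had been disrupted with CRISPR/Cas9 (KO) and 4 libraries of wild-type cells (WT). Cells of both groups were cultured for 48 h and then received 0.5 mM 8-BrcAMP, a cell-permeable cAMP analog, for 3 h, so no library shows unstimulated cells. KO cells were isolated as clones, and the sources name no clone for the libraries, so a difference of genotype and a difference between a clone and its parent line cannot be told apart.

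Insl3 is the peptide hormone of differentiated Leydig cells, which acts through the receptor Rxfp2 on the gubernaculum during descent of the testis. Relaxin, encoded by Rln1 in the mouse, signals through Rxfp1, and relaxin-3, encoded by Rln3, is best known as a neuropeptide whose receptor is Rxfp3. All of these hormones are made as prohormones of the insulin superfamily and are cut by proprotein convertases. CRH raises cAMP through the G protein-coupled receptor Crhr1, while Crhbp is a secreted protein that binds CRH and keeps it from its receptors.

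MA-10 KO cells held more Insl3 and Crhr1 RNA than WT cells, and much less Rln3 and Crhbp RNA. Insl3 averaged 68.9 ± 5.99 CPM in KO cells and 28.1 ± 3.47 CPM in WT cells, and Crhr1 averaged 20.01 ± 0.908 CPM in KO cells and 10.3 ± 1.07 CPM in WT cells (mean ± SD, n = 4 each; CPM are read counts relative to the library total, scaled by TMM). Rln3 averaged 1.61 ± 0.238 CPM in KO cells and 16.5 ± 1.74 CPM in WT cells, and Crhbp averaged 0.757 ± 0.199 CPM in KO cells and 8.33 ± 1.59 CPM in WT cells. The relaxin receptors and Rln1 were at or near 0 reads in both groups. The libraries are of a cell population, in which fewer cells that express a gene and less RNA per cell cannot be told apart.

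Of the 8 genes, 4 passed the filter on low counts and 4 did not. In each of the 4 that passed, the KO and WT libraries did not overlap, which held for 38.6% of all 13185 tested genes. All 4 were also past an adjusted p of 0.05 in edgeR's quasi-likelihood test, as were 42.7% of tested genes, with 21.7% higher and 21.1% lower in KO cells. Since the genes were chosen with this difference known, nothing is read from these counts. The median log2 fold change of all tested genes was -0.0019 and the median absolute value was 0.205.

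The 8 libraries held 14927989 to 18394797 counts in KO cells and 15075610 to 16321292 in WT cells (exact permutation test, 2-sided, p = 0.2). The study describes them as biological replicates, but the labels do not say whether those of a group came from separate cultures, so p-values measure the spread between these libraries, part of which may be technical. Mttp, the targeted gene, had 5.09, 4.52, 6.75 and 7.13 CPM in KO libraries 1 to 4, against 12.9, 11.9, 13.3 and 14.4 CPM in WT libraries 1 to 4 (log2 fold change -1.15, SE 0.135, edgeR adjusted p = 4.45e-06), and -0.93 after subtraction of the median of chromosome 3. Counts read the transcript and not the MTP protein.

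Insl3 (ENSMUSG00000079019; chr8:71689214-71690575 in GRCm38, plus strand) had 72.8, 74.6, 61.5 and 66.7 CPM in KO libraries 1 to 4, against 23.2, 31.2, 29.5 and 28.5 CPM in WT libraries 1 to 4. These values rest on 1094 to 1260 reads per library in KO cells and on 379 to 471 in WT cells. Every KO library thus lay well above the highest WT library, and WT library 1 was the lowest of its group. The mean was 2.45 times as high in KO cells, with a log2 fold change of 1.29 (SE 0.0858, 95% interval 1.11 to 1.48). Among all tested genes, 163, with Insl3 included, had a log2 fold change as large or larger. The coefficient of variation was 8.69% in KO cells and 12.3% in WT cells, against 2.95% and 4.78% that counting error alone would give, so most of the spread among Insl3 libraries was not counting error.

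Insl3 lies inside another gene on the same strand, Jak3, which encodes a cytokine receptor kinase. In the annotation of GRCm39, all 629 exonic bases of Insl3 are also exonic in Jak3, and 25 of 30 Jak3 transcripts hold some of them. Positions in the count table are those of GRCm38, so the overlap may differ in the annotation used for counting. Strand cannot separate reads on shared bases, and the sources used here do not say how these reads were assigned. Insl3 held 1094 to 1260 reads per KO library and 379 to 471 per WT library, against 209 to 251 and 149 to 187 for Jak3. Most reads counted for Insl3 were thus not counted for Jak3 as well, while reads that Insl3 may lack cannot be seen. Nor can it be seen whether reads of Insl3 transcripts were counted for Jak3. Jak3 itself averaged 13.3 ± 0.837 CPM in KO cells and 10.8 ± 0.755 CPM in WT cells (log2 fold change 0.30, SE 0.0930, edgeR adjusted p = 0.0156). Without WT library 2 its adjusted p was 0.0515. The log2 fold change of Jak3 was thus smaller than that of Insl3 in the same libraries.

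Rln3 (ENSMUSG00000045232; chr8:84042929-84045000, minus strand) went the other way. It had 1.62, 1.62, 1.31 and 1.89 CPM in KO libraries 1 to 4, against 16.6, 18.8, 15.8 and 14.7 CPM in WT libraries 1 to 4. The KO values are 24 to 31 reads per library and the WT values 233 to 284, so the transcript was still counted in every KO library, above the 3 counts taken here as the limit of detection (0.163 to 0.202 CPM in KO and 0.184 to 0.199 CPM in WT libraries). The mean in KO cells was 0.0974 times that in WT cells, with a log2 fold change of -3.36 (SE 0.140, 95% interval -3.66 to -3.06). With Rln3 and Crhbp included, 28 tested genes had a drop as large or larger. In KO cells the coefficient of variation, 14.8%, was below the 19.3% that counting error gives at this depth.

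**Figure D1:**
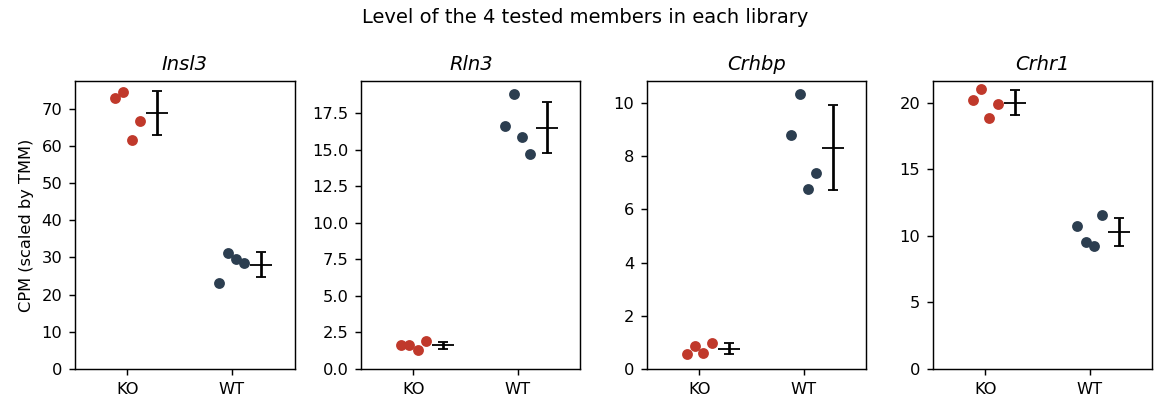
Level of Insl3, Rln3, Crhbp and Crhr1 in CPM (vertical axis, linear and starting at 0 in each panel) in each of 4 KO libraries (red) and 4 WT libraries (dark blue), with the mean and SD of each group in black. Insl3 and Crhr1 lie higher in all KO libraries than in any WT library, and Rln3 and Crhbp lower, with Rln3 at 1.31 to 1.89 CPM in KO and 14.7 to 18.8 CPM in WT cells.

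Insl3 and Rln3 lie on the same chromosome and moved in opposite directions, so short stretches of their promoters are shown, taken from RefSeq on GRCm38.p6 (250 bases before to 50 after the annotated start). Promoters were found for 7 of the 8 genes. The motifs searched on both strands were AAAGGTCA, to which NR4A receptors such as Nr4a1 bind, CAAGGTCA, to which Nr5a1 binds, their common core AAGGTC, the cAMP response element TGACGTCA and its shorter form TGACG, and the TATA box as TATAAA or as TATAA. The core AAGGTC is part of both longer receptor motifs, TGACG is part of TGACGTCA, and TATAA is part of TATAAA. Positions count from the start of the RefSeq transcript along the gene's own strand, and in the table's annotation Insl3, Rln3 and Crhbp begin upstream of it. Capitals mark the motif.
Rln3, AAAGGTCA at -117, chr8:84045078-84045107, minus strand: aaggagatggtAAAGGTCAggttgccaact
Rln3, TATAAA at -40, chr8:84045002-84045031, minus strand: ggagccagcctgTATAAAtaggggatcgga
Insl3, AAGGTC at -136, chr8:71689104-71689133, plus strand: ggagaggacttcAAGGTCccaagctggaca
Insl3, AAGGTC on the other strand at -90, chr8:71689150-71689179, plus strand: gactcgagcctcGACCTTttgggtgctgct
Insl3, TATAA at -30, chr8:71689210-71689239, plus strand: gcgcgaggcagtTATAAggagcatccctgc

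The full 8-letter NR4A motif was thus in the Rln3 window and the core alone, at 2 places, in the Insl3 window. AAAGGTCA was in 1.51% of all 32851 promoter windows of this length, and AAGGTC in 12.3%. TATAAA was in 13.6% and TATAA in 24.9% of windows. Neither window held CAAGGTCA (in 1.56% of windows), nor TGACGTCA (in 1.79%), nor TGACG (in 20.8%). A match is a description of the letters and shows no binding.

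Rln1 (ENSMUSG00000039097; chr19:29331170-29334670, minus strand), the mouse relaxin gene, had 0, 0, 3 and 1 reads in KO libraries 1 to 4, against 4, 4, 3 and 1 reads in WT libraries 1 to 4. The libraries overlapped, no library held more than 4 reads, and a difference was not detectable at this depth. In contrast to Rln3, Rln1 was thus near the limit of detection also in WT cells. Its window held TATAAA at -10 and none of the receptor or cAMP motifs.

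None of the relaxin family receptors was counted above 4 reads in any library. Rxfp2 (chr5:150018675-150082184, plus strand), the receptor for Insl3, had 0 reads in every KO library, against 1, 0, 0 and 0 reads in WT libraries 1 to 4. Rxfp3 (chr15:11033717-11037991, minus strand), the receptor for relaxin-3, had 0 reads in every KO library as well, against 0, 0, 0 and 1 reads in WT libraries 1 to 4. A count of 0 allows levels of up to 3 counts, or 0.202 CPM in the shallowest KO library. Rxfp1 (chr3:79641611-79737880, minus strand), the receptor for relaxin, had 2, 3, 2 and 2 reads in KO libraries 1 to 4, against 4, 0, 0 and 1 reads in WT libraries 1 to 4. Its groups overlapped, and all its KO libraries held at least 2 reads. The hormones Insl3 and Rln3 were therefore measured here in cells in which RNA of Rxfp2 and of Rxfp3 was at most 1 read per library.

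**Figure D2:**
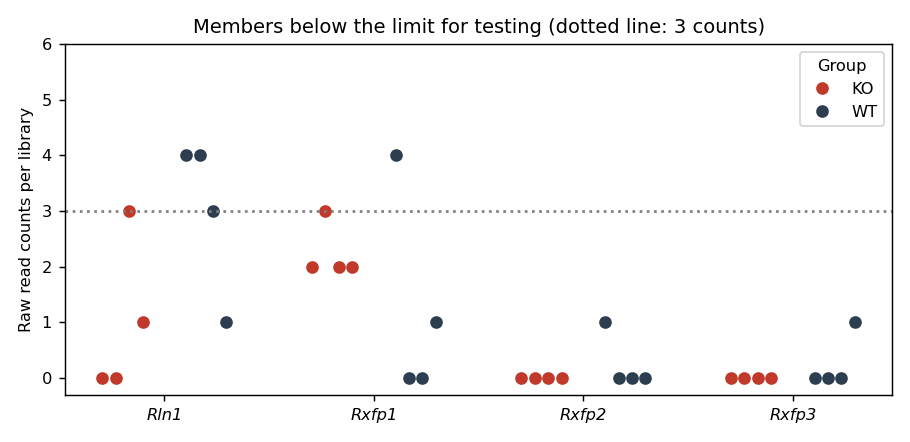
Raw reads per library (vertical axis) for Rln1, Rxfp1, Rxfp2 and Rxfp3, the genes that did not pass the filter on low counts, in 4 KO libraries (red, left of each pair) and 4 WT libraries (dark blue). The dotted line marks 3 counts, and no library rises above 4 reads for any of these genes.

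Crhbp (ENSMUSG00000021680; chr13:95431371-95444924, minus strand) had 0.578, 0.876, 0.599 and 0.975 CPM in KO libraries 1 to 4, against 8.81, 10.3, 6.78 and 7.38 CPM in WT libraries 1 to 4. The KO values rest on 10, 13, 11 and 16 reads and the WT values on 144, 156, 104 and 117 reads. The lowest WT library thus lay far above the highest KO library, and every KO library was above the limit of 3 counts. The mean in KO cells was 0.0909 times that in WT cells, with a log2 fold change of -3.46 (SE 0.216, 95% interval -3.92 to -3.002). With Crhbp included, 25 tested genes had a drop as large or larger. The coefficient of variation of Crhbp in KO cells, 26.3%, was near the 28.3% of counting error, while in WT cells it was 19.1% against 8.76%. The Crhbp promoter window held the short cAMP motif at -64, on the other strand, and TATAAA at +31, inside the RefSeq transcript. They are shown because Crhbp is the gene of this group with the largest drop.
Crhbp, TGACG on the other strand at -64, chr13:95444878-95444907, minus strand: gagctggaccctCGTCAttgccacgcattt
Crhbp, TATAAA at +31, chr13:95444784-95444813, minus strand: cctctactgctcTATAAAagagacccagca

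Crhr1 (ENSMUSG00000018634; chr11:104132855-104175523, plus strand), the receptor whose ligand Crhbp binds, had 20.2, 21.0, 18.8 and 19.9 CPM in KO libraries 1 to 4, against 10.8, 9.54, 9.26 and 11.5 CPM in WT libraries 1 to 4. All KO libraries lay above all WT libraries, on 312 to 350 reads in KO and 142 to 183 reads in WT cells. The mean was 1.95 times as high in KO cells, with a log2 fold change of 0.96 (SE 0.0905, 95% interval 0.77 to 1.15). With Crhr1 and Insl3 included, 314 tested genes had a log2 fold change as large or larger. Of the 7 promoter windows, that of Crhr1 was the richest in G and C (75%, against 61.3% for Insl3, 54.3% for Rln3, 48% for Crhbp and a median of 52.7% over all windows), and it held none of the motifs searched.

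Levels of different genes were compared per length of transcript, as TPM, in which counts are divided by gene length before they are set against the library total. Those of Insl3 depend on how reads on bases shared with Jak3 were assigned, which is not known. In KO cells Insl3 was the highest (295 ± 24.3 TPM), followed by Crhr1 (21.7 ± 1.10 TPM), Rln3 (6.76 ± 0.967 TPM) and Crhbp (1.13 ± 0.306 TPM), and no neighbours in this order overlapped between libraries. In WT cells the order was Insl3 (120 ± 14.2 TPM), Rln3 (69.4 ± 9.07 TPM), Crhbp (12.3 ± 2.60 TPM) and Crhr1 (11.1 ± 0.986 TPM), and the last 2 overlapped, at 10.1 to 15.5 TPM for Crhbp and 10.1 to 12.04 TPM for Crhr1. Insl3 stood at percentile 96.6 of all tested genes in KO cells and at 90.5 in WT cells. Rln3 was at percentile 31.4 in KO cells and at 82.9 in WT cells, Crhbp was at 8.44 in KO cells and at 44.2 in WT cells, and Crhr1 was at 57.5 in KO cells and at 41.7 in WT cells.

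Ratios of these genes within a library need no scaling between libraries. Insl3 was 45.8, 46.9, 47.9 and 35.9 times the TPM of Rln3 in KO libraries 1 to 4, against 1.42, 1.69, 1.90 and 1.97 times in WT libraries 1 to 4. By these counts, Insl3 and Rln3 were thus within a factor of 2 of each other in WT cells and far apart in KO cells. Reads that Insl3 may lack, on bases shared with Jak3, are not in these ratios. Crhr1 was 25.6, 17.6, 23.0 and 15.0 times the TPM of Crhbp in KO libraries 1 to 4, against 0.894, 0.675, 0.999 and 1.14 times in WT libraries 1 to 4. The ratio of Rln3 to Crhbp, the genes that were lower in KO cells, was 6.22 ± 1.22 in KO cells and 5.70 ± 0.651 in WT cells, and its libraries overlapped. The ratio of Insl3 to Crhr1, the genes that were higher, was 13.6 ± 0.631 in KO cells and 10.9 ± 2.16 in WT cells, and its lowest KO library (12.9) and highest WT library (12.9) were nearly equal.

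**Figure D3:**
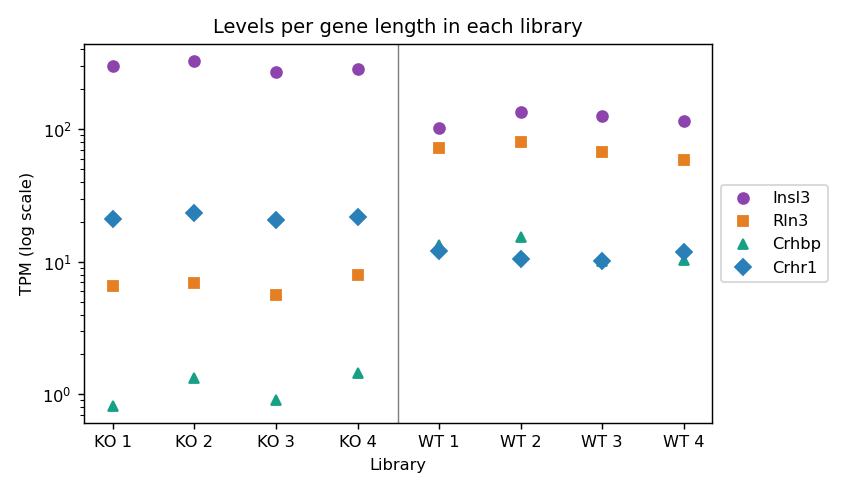
TPM on a log axis for Insl3 (purple circles), Rln3 (orange squares), Crhbp (green triangles) and Crhr1 (blue diamonds) in each KO library (left of the line) and each WT library (right of it). Rln3 lies near Insl3 in WT libraries and below Crhr1 in KO libraries, while Crhbp and Crhr1 lie together in WT libraries (their marks overlap in WT library 3) and apart in KO libraries.

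Of 8 other genes of the relaxin and CRH families, 1 was tested. Insl6, which lies beside Rln1 and encodes an insulin-like peptide of the testis, averaged 4.02 ± 0.540 CPM in KO cells and 3.55 ± 0.781 CPM in WT cells (log2 fold change 0.17, SE 0.185, edgeR adjusted p = 0.492). By edgeR and by DESeq2, 0 of this list passed the test, and 0 had an unadjusted edgeR p under 0.05. Crhr2, the second CRH receptor, had 0, 3, 6 and 2 reads in KO libraries 1 to 4, against 19, 7, 10 and 1 reads in WT libraries 1 to 4, and its groups overlapped. Ucn2, a ligand of Crhr2, had 1, 0, 0 and 0 reads in KO libraries 1 to 4, against 4, 3, 5 and 8 reads in WT libraries 1 to 4. Without a filter on low counts, 2 of 5 genes of this list passed the test, both lower in KO cells (Ucn2, adjusted p = 0.0031, and Crhr2, adjusted p = 0.0166, by edgeR). Crh, the ligand of Crhr1, had 0 reads in KO cells and 1 in WT cells, and Insl5, Ucn and Ucn3 had 0 reads in all libraries. Crhr1 and Crhbp were thus counted in cells with next to no RNA of the peptide that they bind.

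Of 12 transcription factors that act on the Insl3 promoter or on Leydig cell gene expression, 6 were higher, 2 were lower and 4 did not pass the test, with a median log2 fold change of 0.089. This share of genes past the test stands beside 42.7% of all tested genes. Nr5a1, the SF-1 factor of steroidogenic cells, was at 549 ± 18.3 CPM in KO cells and 544 ± 34.5 CPM in WT cells (log2 fold change 0.01, edgeR adjusted p = 0.869). Nr4a1, which cAMP induces in Leydig cells, was at 2689 ± 176 CPM in KO cells and 2438 ± 40.8 CPM in WT cells (log2 fold change 0.14, edgeR adjusted p = 0.0263), a call that was lost without WT library 2 or KO library 2, 3 or 4 (adjusted p of 0.0538 to 0.0879). Its relative Nr4a3 fell to 235 ± 29.5 CPM in KO cells, against 420 ± 42.9 CPM in WT cells (log2 fold change -0.84, SE 0.0839, edgeR adjusted p = 8.03e-07). Nr4a1 and Nr4a3 both belong to the receptor family that binds AAAGGTCA, the motif printed above for Rln3. Any link between their levels and that of Rln3 was not tested.

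Nr2f2, or COUP-TFII, a factor of the Leydig lineage, fell to 9.87 ± 1.37 CPM in KO cells, against 17.5 ± 2.88 CPM in WT cells (log2 fold change -0.82, SE 0.128, edgeR adjusted p = 8.24e-05). Esr1, the estrogen receptor, rose to 107 ± 2.53 CPM in KO cells, against 61.9 ± 1.64 CPM in WT cells (log2 fold change 0.78, SE 0.0481, edgeR adjusted p = 3.22e-09). Klf6, a zinc finger factor, rose to 31.3 ± 1.06 CPM in KO cells, against 22.6 ± 2.13 CPM in WT cells (log2 fold change 0.47). Mef2a (0.34) and Nr0b1 (0.18, log2 fold changes) were also higher, and Gata4, Mef2d and Jun did not pass the test. With an absolute log2 fold change above 0.5 also required, 3 factors (Esr1, Nr4a3 and Nr2f2) were past the limits, beside 15.8% of all tested genes.

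Of 13 genes of prohormone processing and secretory granules, 7 were tested, of which 2 were higher, 0 were lower and 5 did not pass the test (median log2 fold change -0.11), beside 42.7% of all tested genes past the test. Without WT library 4, 4 of them passed, 2 higher and 2 lower (Cpe and Furin, edgeR adjusted p of 0.0460 and 0.0453). Pcsk5, a proprotein convertase, rose to 176 ± 4.12 CPM in KO cells, against 99.7 ± 6.43 CPM in WT cells (log2 fold change 0.82, SE 0.0528, edgeR adjusted p = 5.24e-09). It lies on chromosome 19, whose tested genes had a median log2 fold change of 0.51, and relative to that median its log2 fold change was 0.31. Pcsk6, a related convertase, rose to 2.46 ± 0.160 CPM in KO cells, against 1.28 ± 0.379 CPM in WT cells (log2 fold change 0.94, SE 0.234, edgeR adjusted p = 0.0040). Cpe, the carboxypeptidase that trims cut prohormones, was at 495 ± 13.6 CPM in KO cells and 532 ± 9.51 CPM in WT cells (log2 fold change -0.11, edgeR adjusted p = 0.0525, and 0.0320 by DESeq2). Pcsk1, Scg5 and Chga, genes of the regulated secretory pathway of endocrine cells, had 0 reads in all libraries, so the abundant genes of this list were Cpe and Pcsk5.

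Insl3 is itself a marker of Leydig cells. Of 8 other such markers, 7 were tested, of which 5 were higher in KO cells, 0 were lower and 2 did not pass the test, beside 42.7% of all tested genes past the test and 21.7% higher. Prlr, the prolactin receptor, had a log2 fold change of 2.57, Lhcgr, the luteinizing hormone receptor, 1.86, Hsd3b1, which makes progesterone, 1.66, and Cyp11a1, the side-chain cleavage enzyme, 1.29, the same as Insl3 to 2 decimals. Inha, an inhibin subunit, had 0.81. Star, which carries cholesterol into mitochondria, was at 5290 ± 298 CPM in KO cells and 5685 ± 340 CPM in WT cells (log2 fold change -0.10, edgeR adjusted p = 0.122). The summed level of the list, Insl3 included, was 7841 to 8534 CPM in KO libraries and 6944 to 7827 CPM in WT libraries. Hsd17b3, the testosterone-making enzyme of adult Leydig cells, was near 0.

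**Figure D4:**
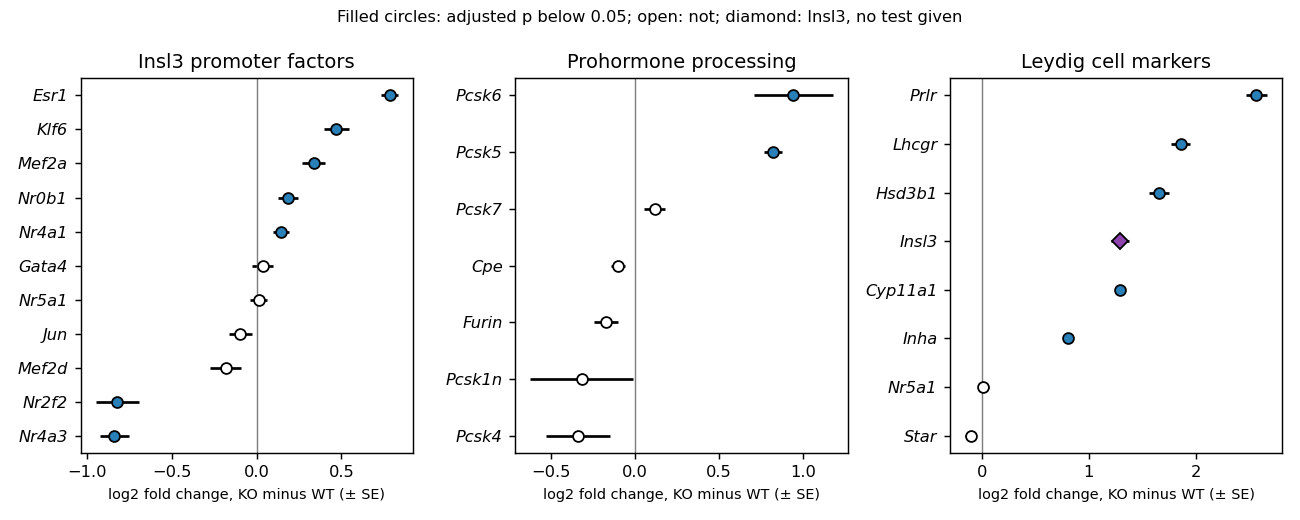
Log2 fold change, KO minus WT, with its SE (horizontal axis) for tested factors of the Insl3 promoter (1 is left out), genes of prohormone processing and Leydig cell markers. Filled circles are past an adjusted p of 0.05 and open circles are not, and Insl3 (purple diamond) is shown at 1.29 without a test, beside Cyp11a1, and below Prlr at 2.57.

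Markers of other testis cells were mixed in level and direction. Some were near 0, while Rhox5 (321 CPM in KO and 167 CPM in WT cells) and Cdh5 (108 and 200 CPM) were more abundant than Insl3. The counts below stand beside 42.7% of all tested genes past the test, with 21.7% higher and 21.1% lower in KO cells. Of 6 Sertoli cell markers, 3 were tested and 1 rose (Rhox5, log2 fold change 0.94), with a summed level of 365 to 409 CPM in KO and 228 to 243 CPM in WT libraries, and Cldn11 was at 0. Of 5 macrophage markers, 2 were tested and both fell (Cd68, -1.68, and Csf1r, -0.79, on the log2 scale), with a summed level of 6.47 to 8.98 CPM in KO and 16.4 to 21.4 CPM in WT libraries, while the defining markers Adgre1, Ptprc and Lyz2 were at 0 in every library. Of 4 endothelial markers, 2 were tested and 1 fell (Cdh5, -0.89 on the log2 scale; sum 100 to 120 CPM in KO and 182 to 210 CPM in WT libraries). Of 4 myoid cell markers, 2 were tested and 1 fell (Cnn1, -2.67 on the log2 scale; sum 12.4 to 15.0 CPM in KO and 23.9 to 27.1 CPM in WT libraries). Of 5 germ cell markers, 2 were tested, Ddx4 and Dbil5, and neither passed the test (edgeR adjusted p of 0.193 and 0.219; sum 3.57 to 5.97 CPM in KO and 1.89 to 4.53 CPM in WT libraries). MA-10 is a Leydig tumour cell line, so these markers are read as levels of genes and not as amounts of other cell types. Any relation of these genes to the levels of Rln3 and Crhbp was not tested.

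Genes within 100 kb of each of the 8 genes were examined for a shared change. Of 35 tested neighbours, 10 were higher, 3 were lower and 22 did not pass the test, with a median log2 fold change of 0.12. Neighbours were thus called about as often as tested genes in general, of which 42.7% were called. The lower genes were Il27ra near Rln3, Ppid near Rxfp1 (-0.23) and C1qtnf3 near Rxfp3 (-2.20 on the log2 scale), of which Ppid and C1qtnf3 were named after their values were seen. Relative to the median of chromosome 3, Ppid was at -0.0062. Near Insl3, 4 of 7 tested neighbours were higher and 0 were lower (median 0.33), beside 21.7% of all tested genes higher and 21.1% lower. B3gnt3, a glycosyltransferase gene on the opposite strand, 180 bases from the end of Insl3, rose to 13.2 ± 1.02 CPM in KO cells, against 8.20 ± 0.282 CPM in WT cells (log2 fold change 0.69, SE 0.0962, edgeR adjusted p = 2.83e-05). The others were Jak3, Pgls (0.33) and Fcho1 (0.45), of which the last 2 were named after their values were seen. Jak3 overlaps Insl3, and the assignment of reads on shared bases is not given, so its count may hold reads of Insl3. Unc13a, the nearest tested gene on the other side, was at 0.25 (edgeR adjusted p = 0.369). No tested neighbour of Insl3 reached its log2 fold change of 1.29.

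Near Rln3, 1 of 13 tested neighbours was higher and 1 was lower. Il27ra, a cytokine receptor gene 339 bases away, fell to 62.0 ± 4.35 CPM in KO cells, against 73.0 ± 3.54 CPM in WT cells (log2 fold change -0.24, SE 0.0606, edgeR adjusted p = 0.0050). The higher gene was 1700067K01Rik (0.48, named after its value was seen), and Gm10643, nearest on the other side, was at -0.07 (edgeR adjusted p = 0.871). No tested gene around Rln3 thus came near its log2 fold change of -3.36. Near Crhbp, neither of 2 tested neighbours passed the test, and Aggf1, an angiogenic factor gene, was at 89.7 ± 3.27 CPM in KO cells and 90.6 ± 1.68 CPM in WT cells (log2 fold change -0.01, edgeR adjusted p = 0.844). Near Crhr1, the only tested neighbour was Mapt, the tau gene, which rose to 149 ± 8.49 CPM in KO cells, against 116 ± 3.11 CPM in WT cells (log2 fold change 0.36, edgeR adjusted p = 3.67e-05).

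**Figure D5:**
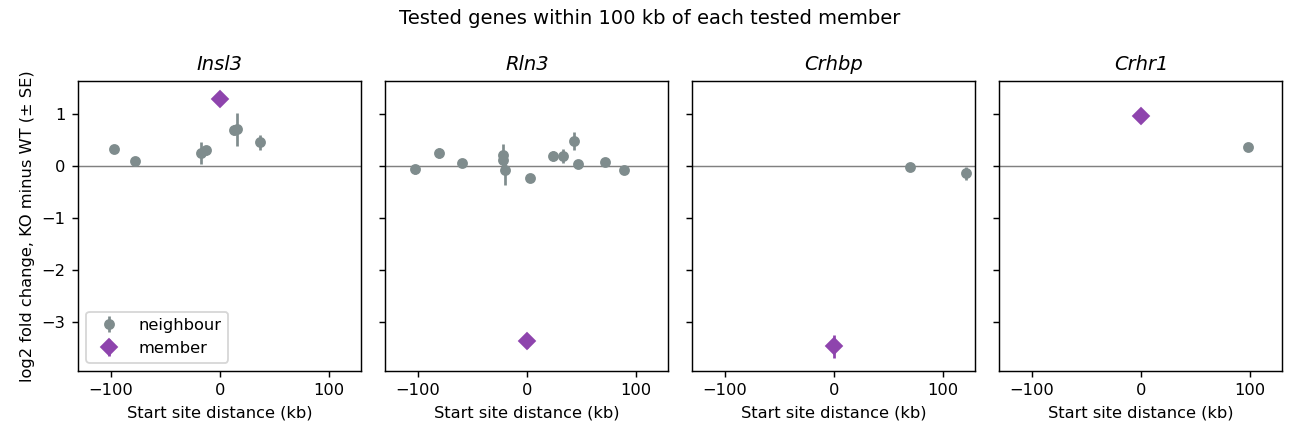
Log2 fold change, KO minus WT, with its SE (vertical axis) of tested genes within 100 kb (grey circles) by the distance of their start site from that of Insl3, Rln3, Crhbp or Crhr1 (purple diamonds), in kb. No neighbour comes near the values of Rln3 (-3.36) or Crhbp (-3.46), and the neighbours of Insl3 lie between 0.10 and 0.70.

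The genes with the most similar pattern were found by the root mean square difference of log2 CPM over the 8 libraries, after centring on the WT mean. These were, for Insl3, Ggt5 (0.095), Smoc1 (0.112) and Mgat4b (0.113), of which Mgat4b was at 107 ± 4.31 CPM in KO cells and 44.6 ± 1.99 CPM in WT cells. For Rln3 they were Txnip (0.186), Pdpn (0.195) and Hspb8 (0.221), and for Crhbp they were Hspb8 (0.219), Txnip (0.292) and Spp1 (0.303). Txnip, an inhibitor of thioredoxin, was at 3.66 ± 0.540 CPM in KO cells and 39.1 ± 5.05 CPM in WT cells, and Hspb8, a small heat shock protein, was at 1.33 ± 0.494 CPM in KO cells and 12.5 ± 1.34 CPM in WT cells. For Crhr1 they were Dapk1 (0.0927), Spry3 (0.0928) and Gstm6 (0.0950), of which Dapk1, a protein kinase, was at 44.0 ± 2.15 CPM in KO cells and 24.3 ± 1.94 CPM in WT cells. Likeness over 8 libraries in 2 groups rests mostly on the difference between the groups. Rln3 and Crhbp shared Txnip and Hspb8 among their 3 most similar genes, which rests mostly on their like drops and is no separate result.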

How the data were processed

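RNA was measured in 4 MTP KO and 4 WT libraries of MA-10 cells. The authors deposited raw gene read counts of all libraries in 1 table, made from poly(A)-selected RNA, and their processing notes name HISAT2 2.0.5 and featureCounts 1.5.0-p3. These notes list the builds GRCh37, hg19 and mm39, while the positions of all 8 genes overlap those of RefSeq on GRCm38.p6, so positions are given in GRCm38. For the strand setting and the handling of shared reads, not given in the sources used here, no assumption was made. Groups came from the sample titles, since the genotype field is wild type throughout. Pairs of libraries within a group differed by more than sampling noise (12 pairs, chi-square per degree of freedom 3.42 to 15.1), so none was a copy.

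The analysis ran in edgeR 4.0.16 under R 4.3.3: filterByExpr (minimum count 10, minimum total 15) kept 13185 of 54532 genes, TMM scaled the libraries, and the quasi-likelihood F test gave KO against WT p-values, adjusted by Benjamini-Hochberg over all tested genes and called below 0.05. Scripts were tested on simulated data. TPM used the gene lengths in the table. Intervals of the log2 fold change rest on the SE from the quasi-likelihood fit, which takes in the spread between libraries as well as counting error. The limit of 3 counts covers counting error only. Alternatives were DESeq2 1.42.0 (the tool of the study), its size factors, no TMM, other filters, a replicate block, an added limit of 0.5 on the log2 fold change, centring by chromosome and leaving out each library.

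The genes and lists were chosen with earlier results of these data known. Named genes were the 8 genes, Mttp, up to 4 called genes per list with the largest fold change and the 2 most abundant, overlapping genes and the nearest tested neighbour on each side, and the 3 most similar genes by log2 CPM (prior count 2). Other genes are named as examples of a count. The result of 1 promoter factor is not reported here, while counts over its list include it.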

Additional observations from a re-analysis of the deposited data

Results flagged for a closer look

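In 7 of 102 groups of 4 libraries, searched over 51 genes, the highest or lowest library stood apart from the others by Dixon's criterion, which chance gives in about 1 in 20 groups. Among the relaxin receptors these were Rxfp1 in KO library 2 (highest, 0.202 CPM), Rxfp2 in WT library 1 (highest, 0.0612 CPM) and Rxfp3 in WT library 4 (highest, 0.0631 CPM), which are 3, 1 and 1 reads. A lone read among libraries with 0 reads, as for Rxfp2 and Rxfp3, always meets the criterion, so the rate of chance does not hold for them. Hspb8, 1 of the genes most similar to Rln3 and Crhbp, was highest in KO library 4 (2.07 CPM), the library in which Rln3 and Crhbp were also highest among KO libraries. Since Hspb8 was picked by its likeness to them over these same libraries, the match is no separate result. Of the markers of other cells, Rhox5 was lowest in WT library 1 (149.8 CPM), Cd68 highest in KO library 3 (4.46 CPM) and Cdh5 lowest in WT library 4 (180.2 CPM). No library of Insl3, Rln3, Crhbp or Crhr1 stood apart in this way.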

How the results depend on the processing

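The log2 fold changes of the 4 tested genes moved by less than 1 SD between replicates over 15 alternatives, from 1.21 to 1.35 for Insl3, -3.44 to -3.26 for Rln3, -3.61 to -3.34 for Crhbp and 0.91 to 1.02 for Crhr1. Of 493 values for 33 other named genes, 470 kept their direction and call or moved by less than 1 SD, 6 lost the call, 6 gained it, 4 moved and 7 changed sign. The sign changes, each from a library left out, were of genes that passed the test under no setting, with log2 fold changes over the libraries left out of -0.027 to 0.042 for Nr5a1, -0.111 to 0.075 for Sox9, -0.208 to 0.016 for Gm10643 and -0.025 to 0.0090 for Aggf1. Centring on the chromosome median moved Insl6, which passed no test, across 0 to -0.34, Nr4a1 to 0.04, Pcsk5 to 0.31 and Hsd3b1 to 1.88 on the log2 scale. Cpe passed the test with DESeq2, without TMM, with 10 counts in every library and without WT library 4 (adjusted p of 0.0320 to 0.0460). Ddx4 passed without WT library 1 (0.0404) and Dbil5 without WT library 4 (0.0112).

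With the limit of 0.5 on the log2 fold change, the genes past the test were 2082 in place of 5632 of all tested, 3 in place of 8 promoter factors and 5 in place of 13 neighbours. Without a filter, 2 in place of 0 of the other relaxin and CRH family genes passed. Leaving out 1 library at a time gave 4943 to 5630 genes in all, 6 to 9 promoter factors, 2 to 4 processing genes, 5 Leydig markers without Insl3, 12 to 15 neighbours, and 0 other family genes. The cause of these changes was not tested. Differences between mean library totals were 653139 to 1808740 counts, with the lowest p, 0.0571, without KO library 2, which is the smallest p that 3 against 4 libraries allow.

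Replicate numbers did not pair the libraries, as deviations of same-numbered libraries correlated at -0.152 to 0.041. For libraries of different number the values were -0.072 to 0.183, the highest for KO library 4 with WT library 1. With the replicate block, 4821 genes, 6 promoter factors, 2 processing genes, 5 Leydig markers without Insl3 and 11 neighbours passed. Calls were lost for Nr4a1 (adjusted p = 0.0843), Nr0b1 (0.0506), Fcho1 (0.0513) and 1700067K01Rik (0.0578). Depth limits Rln1 and the receptors, at 4 reads or fewer per library, and the KO values of Crhbp, at 10 to 16 reads.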
